A study of Arabidopsis thaliana with 24 samples.

Results

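The 3 genes described here, AT2G37420, AT3G20150 and AT3G44050, encode kinesins of Arabidopsis thaliana and were each read by 1 array probe annotated with that gene alone. They are 3 of the 691 genes that had such a probe in a table of 3439 probes. They were selected on their annotation as kinesins, with the log2 differences between mutant and wild type in this table already known, so those differences are given as a description with no p-value. The table compared the sut2 mutant with wild type, both of the ecotype Wassilevskija, as total RNA in 12 columns per group numbered 1 to 12. By the labels the mutant lacks SUT2, a plasma-membrane protein named as a transporter or sensor of sucrose; the sources used here name neither the mutant allele nor the tissue, age or growth conditions, and do not say whether each column was a separate plant. No probe was annotated with SUT2 alone or with any of the tissue markers looked for, so neither the mutation nor the tissue could be checked.

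Kinesins are motor proteins that use ATP to move along microtubules or to hold them together. In a dividing plant cell, kinesins of the bipolar class, which AT2G37420 encodes (KIN5B), cross-link the antiparallel microtubules of the spindle and of the phragmoplast, the array that guides the new cell wall. The class to which AT3G44050 (KIN12E) and AT3G20150 (KIN12F) belong includes motors that act at the phragmoplast and at the site where the division plane is set, and KIN12E has been linked to the metaphase spindle. Transcripts of many mitotic kinesins are concentrated in meristems and young organs, where cells divide. No sequence is printed, since none of the files used here holds one.

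The values were linear intensities scaled to a mean near 1 in each column (0.959 to 1.05). The column median lay between 0.338 and 0.425 in wild type and between 0.231 and 0.284 in the mutant, without overlap, so a probe in the middle of the ranks in both groups had a lower intensity in the mutant. Columns with consecutive numbers in 1 group deviated together (correlation of deviations from the group mean over all probes 0.12 to 0.55, 12 pairs). Other pairs of columns within a group were not compared, so a likeness tied to consecutive numbers is not shown. As a precaution, results are also given for averages of consecutive numbers, 6 per group. None of the 3 probes was listed at 0 in any column, and their lowest value, 0.0477, lay above the floor of 0.00971 that was set for dim values. That floor is only the 1st percentile of positive values, so clearing it does not show a signal above background. AT2G37420 was among the dimmest 25% of probes by median normalized value.

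AT2G37420, the bipolar spindle kinesin, had the lower intensities in the mutant. In wild type its lowest, median and highest intensities were 0.166, 0.238 and 0.460, and in the mutant 0.0477, 0.0954 and 0.344. The mutant was lower at 11 of 12 numbers, and 25.4% of all probes were lower at 11 or more. Of the 12 mutant columns 11 lay below the lowest wild type column, and how many of all probes reached this was not counted. The groups overlapped through mutant number 4 alone, whose 0.344 stood far from the next mutant value of 0.156. At 5.5% of all probes every mutant column lay below every wild type column, which held for none of the 3 kinesins. After log2 and quantile normalization, which gives all columns the same distribution, the wild type mean was -2.26 ± 0.57 and the mutant mean -3.02 ± 0.83 (SD over 12 columns). The log2 difference was -0.75 ± 0.28 (SE, limma over all probes; 95% interval -1.34 to -0.17), or 1.69-fold less in the mutant, and the mutant was lower at 9 of 12 numbers on this scale. Without mutant number 4 the log2 difference was -0.90, and over all fits with 1 column left out it ran from -0.90 to -0.64. With consecutive numbers averaged the SE was 0.34 and the interval -1.48 to -0.03. With the averaged set also as a block, the interval, -1.60 to 0.09, spanned both signs. In bulk RNA a smaller number of cells that express a gene and less RNA per cell cannot be told apart.

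AT3G44050, of the class that serves the spindle and phragmoplast, also had lower intensities in the mutant, but the size of the difference moved with the scaling of the columns. Its lowest, median and highest intensities were 0.320, 0.463 and 0.824 in wild type and 0.197, 0.280 and 0.378 in the mutant. The mutant was lower at 12 of 12 numbers, and 10 of its columns lay below the lowest wild type column. How many of all probes had 10 or more such columns was not counted. The groups overlapped in the range of mutant numbers 1 and 11 and of wild type numbers 4 and 6. Lower intensity at 12 of 12 numbers was found at 16.4% of all probes, and the column medians were lower in the mutant as well. After quantile normalization the wild type mean was -1.30 ± 0.37 and the mutant mean -1.62 ± 0.35 (SD over 12 columns). The log2 difference was then -0.33 ± 0.15 (SE; 95% interval -0.64 to -0.01), with the mutant lower at 9 of 12 numbers. With consecutive numbers averaged the SE was 0.21 and the interval, -0.78 to 0.13, spanned both signs.

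AT3G20150, the other kinesin of that class, had nearly the same intensities in both groups. Its lowest, median and highest intensities were 0.102, 0.195 and 0.418 in wild type and 0.0490, 0.188 and 0.261 in the mutant. The mutant was lower at 5 of 12 numbers, and the groups overlapped over most of their range, with wild type number 10 the highest and mutant number 5 the lowest column. After quantile normalization the wild type mean was -2.74 ± 0.67 and the mutant mean -2.20 ± 0.53 (SD over 12 columns), a log2 difference of 0.54 ± 0.24 (SE; 95% interval 0.03 to 1.04). The mutant was then higher at 9 of 12 numbers. With consecutive numbers averaged the SE was 0.26 and the interval, -0.02 to 1.09, spanned both signs. Without normalization the sign turned, to -0.04.

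**Figure D1:**
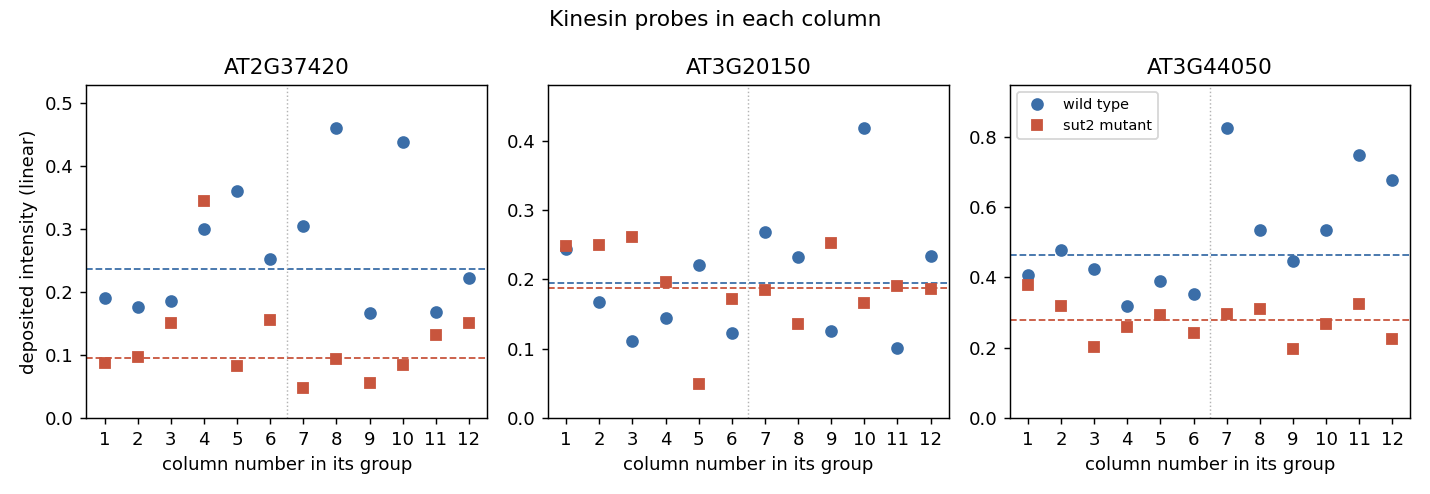
Deposited intensity (linear, y axis) of each kinesin probe against the column number (x axis) in wild type (circles) and the sut2 mutant (squares). Dashed lines are group medians and the dotted line parts numbers 1 to 6 from 7 to 12. For AT2G37420, 11 mutant columns lie below every wild type column, for AT3G44050 10 do, and for AT3G20150 the groups are mixed. The share of all probes with such counts was not taken.

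Of the 3 genes 1, AT2G37420, passed an adjusted p of 0.05 in the limma fit over all probes and columns, where 34.8% of all probes passed (15.9% as lower in the mutant). Because the genes were proposed with this contrast in view, nothing is read from that count. With consecutive numbers averaged none of the 3 passed, against 13.1% of all probes (7.68% as lower). The call of AT2G37420 was lost when any 1 of 13 columns was left out, wild type numbers 4, 5, 6, 7, 8 and 10 and mutant numbers 1, 2, 5, 7, 8, 9 and 10, with log2 differences from -0.75 to -0.64. AT3G20150 passed without mutant number 5 (0.67) or wild type number 10 (0.65), and AT3G44050 without wild type number 4 (-0.39). In those fits 1109, 1122 and 1217 of all 3439 probes passed, so nothing is read from these calls either.

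The scaling moved the centre of the array as well as the 3 genes, so each gene is also given relative to that centre. The median log2 difference of all probes was 0.10 after quantile normalization, 0.06 with cyclic loess, 0.31 with each column centred on its median and -0.24 without normalization. Relative to that median AT2G37420 lay at -0.85, -0.76, -0.99 and -0.99 in these 4 scalings. AT3G44050 lay at -0.43, -0.40, -0.62 and -0.62, and AT3G20150 at 0.44, 0.44, 0.19 and 0.19. The last 2 values of each gene are equal by construction, since median centring moves all probes of a column alike. AT2G37420 and AT3G44050 were below the centre of the array and AT3G20150 above it in these scalings, which give 3 separate values per gene. Without normalization AT2G37420 differed by -1.23 and AT3G44050 by -0.86, and both passed. Of all 3439 probes 1189 passed in that setting, 1016 of them as lower in the mutant, so nothing is read from these calls.

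**Figure D2:**
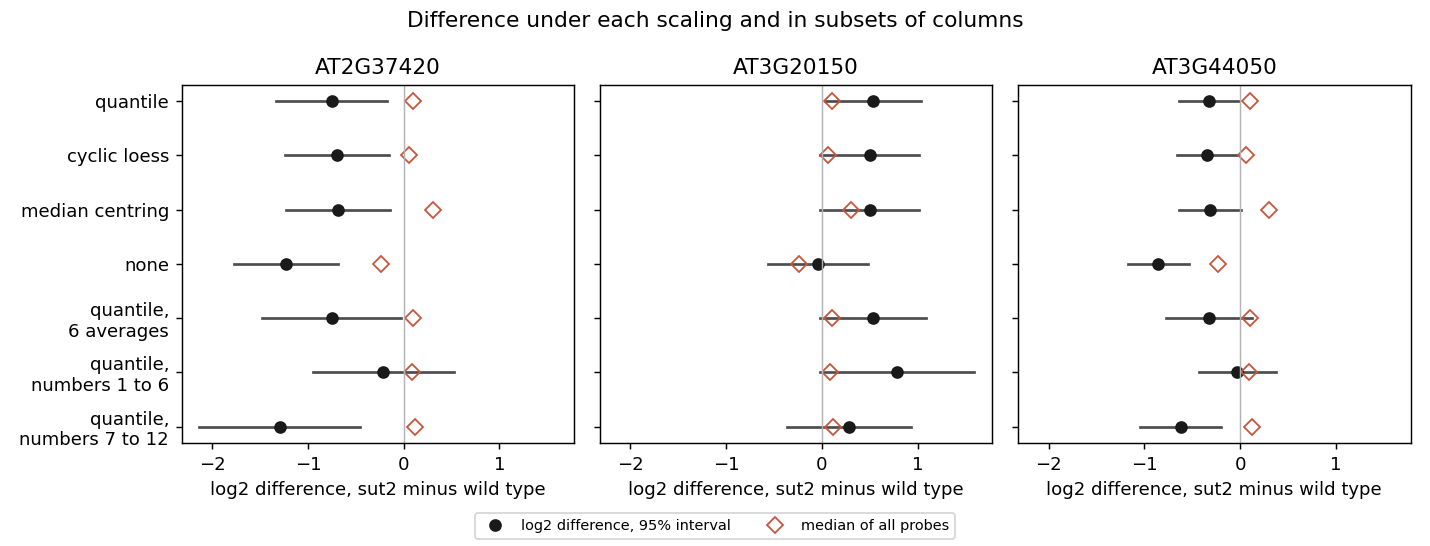
Log2 difference of each kinesin gene, mutant minus wild type (x axis), with its 95% interval (limma, bars) under 4 scalings, with consecutive numbers averaged, and within each division of the numbers. Open diamonds are the median of all probes under the same setting. AT2G37420 and AT3G44050 lie to the left of the diamonds in each row and AT3G20150 to the right, between -0.04 and 0.79.

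The ratio of 2 of the genes within a column is not moved by multiplying the whole column by a factor, as median centring does, though quantile normalization and cyclic loess can move it. It shows whether the genes changed unequally. These ratios were computed on log2 intensities without normalization, an alternative added after the data were seen. The log2 ratio of AT2G37420 to AT3G20150 averaged 0.46 ± 0.48 over wild type columns and -0.73 ± 0.95 over mutant columns (SD, n = 12 per group). The bipolar kinesin thus stood 2.27-fold lower against KIN12F in the mutant, and lower in 6 of 6 averaged sets, by -1.82 to -0.57. By construction, the mean change of a ratio is the gap between the log2 differences of its 2 genes without normalization. The ratios therefore restate those differences and are a description. How many other pairs of probes were lower in 6 of 6 sets was not counted. The log2 ratio of AT3G20150 to AT3G44050 went from -1.42 ± 0.65 in wild type to -0.61 ± 0.76, so AT3G20150 stood higher against AT3G44050 in the mutant by 0.81, and in 5 of 6 sets. The log2 ratio of AT2G37420 to AT3G44050 went from -0.96 ± 0.69 in wild type to -1.33 ± 0.86, a difference of -0.37, smaller than either SD, with 4 of 6 sets lower.

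The numbers were parted into 2 divisions, 1 to 6 and 7 to 12. This split was taken from earlier results of these data and is given by no label. AT2G37420 and AT3G44050 had their most negative differences in the second division. In the averaged sets, AT2G37420 differed by -0.42 in numbers 1 and 2, 0.53 in 3 and 4, -0.76 in 5 and 6, -1.97 in 7 and 8, -1.94 in 9 and 10, and 0.02 in 11 and 12. The sets of numbers 7 to 10 thus held its most negative values. AT3G44050 differed by 0.08, -0.20 and 0.03 in the first 3 sets and by -0.42, -0.83 and -0.62 in the last 3. AT3G20150 differed by 0.88, 1.55, -0.07, -0.02, 0.10 and 0.77 in the 6 sets, with the largest value in numbers 3 and 4. No gene was lower in all 6 sets, which 13.4% of all probes were.

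**Figure D3:**
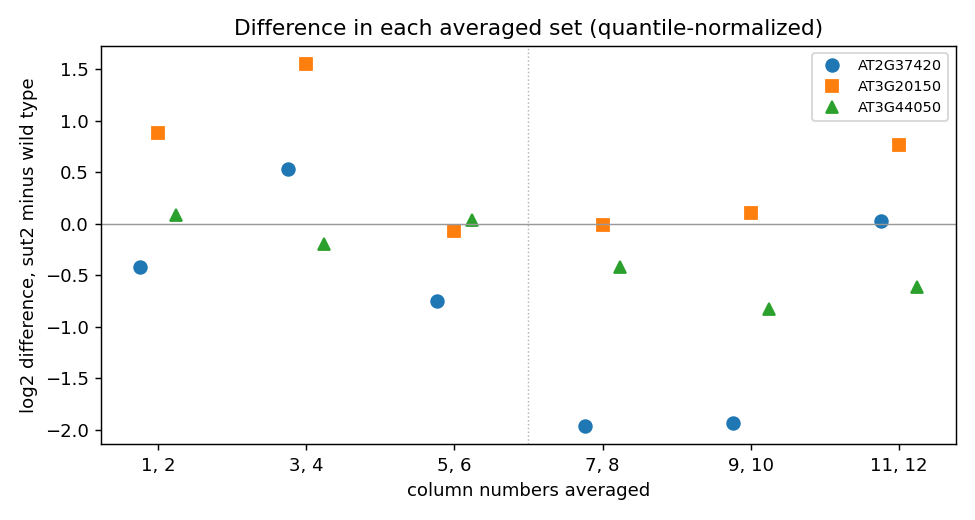
Log2 difference between mutant and wild type (y axis, quantile-normalized) in each set of consecutive numbers (x axis). The dotted line parts the divisions. AT2G37420 ranges from -1.97 to 0.53, AT3G20150 from -0.07 to 1.55 and AT3G44050 from -0.83 to 0.08.

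Over numbers 1 to 6 the change of AT2G37420 was -0.21 and over numbers 7 to 12 it was -1.29 ± 0.43 (SE). For AT3G44050 it was -0.03 and -0.62 ± 0.26. For AT3G20150 it was 0.79 ± 0.35 and 0.28. The difference between the divisions was -1.08 ± 0.61 for AT2G37420 (interaction term of limma on the averages, adjusted p = 0.71, unadjusted 0.11), -0.59 ± 0.36 for AT3G44050 (adjusted p = 0.71, unadjusted 0.13) and -0.50 ± 0.50 for AT3G20150 (adjusted p = 0.81, unadjusted 0.33). None of the 3 passed; 1 of 3439 probes did (0.0291%), and 7.47% had an unadjusted p under 0.05. With the averaged sets also paired by number, a fit added after the data were seen, the SE was 0.65 for AT2G37420, 0.27 for AT3G44050 and 0.49 for AT3G20150, and none passed (limma adjusted p = 0.59, 0.52 and 0.72; unadjusted 0.15, 0.068 and 0.34). The 3 set differences of AT3G44050 in the first division did not overlap with those in the second. How many of all probes did the same was not counted, so nothing is read from this, and neither fit passed for AT3G44050.

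The levels within each group are given by division, with no shift past the test for any of the 3 genes. AT3G44050 had wild type intensities from 0.320 to 0.479 in numbers 1 to 6 and from 0.447 to 0.824 in numbers 7 to 12, while its mutant columns ran from 0.201 to 0.378 and from 0.197 to 0.324. On the normalized scale wild type differed by 0.53 ± 0.26 (SE, limma on averaged values, adjusted p = 0.20), and the mutant by -0.06 (adjusted p = 0.93). For AT2G37420 the mutant differed by -0.86 ± 0.43 (adjusted p = 0.42) and wild type by 0.22 (adjusted p = 0.76). For AT3G20150 wild type differed by 0.48 ± 0.35 (adjusted p = 0.39) and the mutant by -0.02 (adjusted p = 0.99). Between the divisions 1.37% of all probes passed in wild type and 0.698% in the mutant.

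No common movement of the 3 kinesins over the columns passed a test once the difference between the groups was removed. Over 12 averages (6 per group), as deviations from the group mean, AT3G20150 and AT3G44050 had the highest correlation, r = 0.40 and Spearman rho = 0.36 (permutation test within groups, two-sided, p = 0.23 and 0.27; adjusted over the 3 pairs p = 0.68 and 0.75). AT2G37420 and AT3G20150 had r = 0.17 and rho = 0.22 (permutation p = 0.61 and 0.50, adjusted p = 0.90 and 0.75). AT2G37420 and AT3G44050 had r = -0.04 and rho = 0.08 (permutation p = 0.90 and 0.81, adjusted p = 0.90 and 0.81). Without the 2 averages farthest from the median of the first gene of each pair, r was 0.27, 0.15 and -0.06 in the same order. With deviations taken from the mean of group and division, r was 0.18, 0.13 and -0.26, and none of the pairs passed in any of these settings. Within numbers 1 to 6 alone, r was 0.37, -0.09 and -0.77, and within numbers 7 to 12 it was -0.23, 0.55 and 0.24, each over 6 averages. All 3 pairs changed sign between the divisions.

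**Figure D4:**
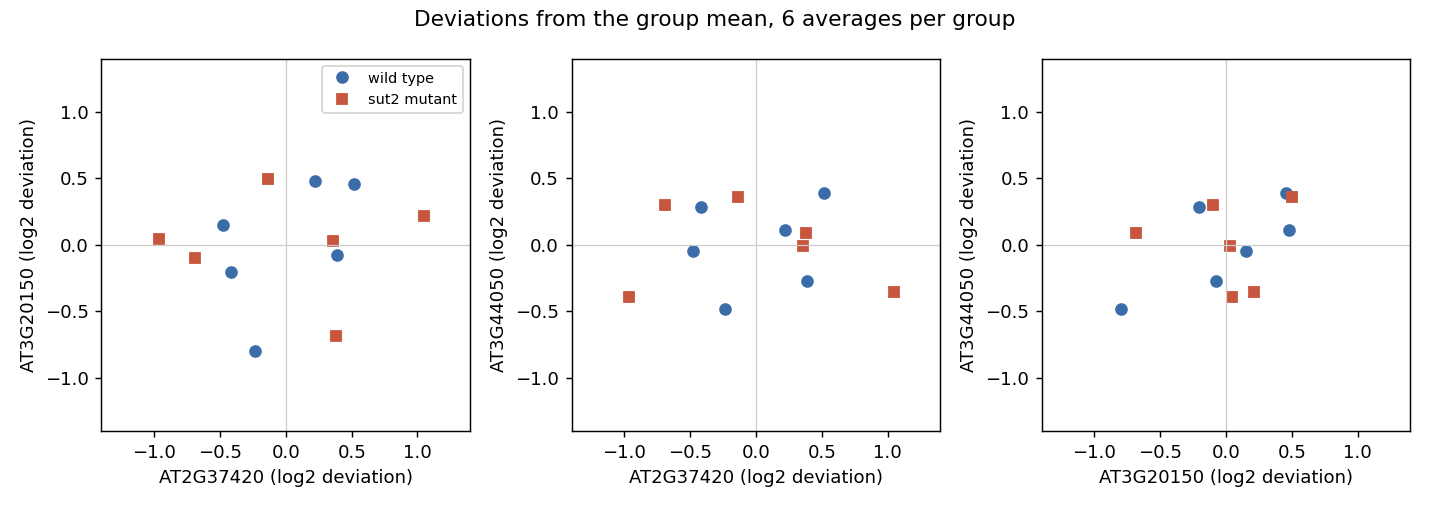
Deviations from the group mean (log2, quantile-normalized) of 1 kinesin gene against another, for 6 averages of wild type (circles) and 6 of the mutant (squares). The points show no common line in any of the 3 panels, where r is 0.17, -0.04 and 0.40 from left to right.

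Taken singly, the 12 wild type columns gave r = 0.68 and rho = 0.71 for AT2G37420 with AT3G20150, and the 12 mutant columns r = -0.04 and rho = -0.06. Both were high in wild type number 10 (0.439 and 0.418). Columns with consecutive numbers deviated together and may not be independent, so these values are a description. The median gap between consecutive numbers was 0.62 for AT2G37420, 0.54 for AT3G20150 and 0.26 for AT3G44050 on the normalized log2 scale, beside differences between the groups of -0.75, 0.54 and -0.33.

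Genes whose deviations from the group mean were most like those of a kinesin gene were sought among the 690 other probes that had 1 gene and varied over the 24 columns. For AT3G44050 these were AT1G68660 (r = 0.70), which encodes the ClpS adaptor of the plastid Clp protease, AT1G75260 (r = 0.69) and AT1G72640 (r = 0.64). For AT2G37420 they were AT3G25410 (r = 0.56), AT2G38500 (r = 0.55) and the chromatin remodelling gene AT1G05490 (r = 0.54). For AT3G20150 they were AT5G38750 (r = 0.58), AT4G24090 (r = 0.56) and AT1G24360 (r = 0.54), an enzyme of plastid fatty acid synthesis. None of the nearest genes was another kinesin, but little can be read from this. The only kinesins known to be among the ranked probes were the other genes described here and 2 of 59 further kinesin genes looked for. Seen from AT2G37420, AT3G20150 (r = 0.28) ranked 73 of 690 and AT3G44050 (r = -0.03) ranked 345, at the median of all probes. The columns share their scaling, those with consecutive numbers deviated together, and the highest of 690 values is high by selection.

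Of 59 other kinesin genes looked for, 2 had a probe of their own, and neither passed in the main fit or in any alternative. AT4G14330 (PAKRP2), a kinesin found on vesicles at the phragmoplast, had median intensities of 0.284 in wild type and 0.236 in the mutant, and a log2 difference of 0.28 ± 0.19 (SE, limma adjusted p = 0.27). AT1G21730, a kinesin described as targeted to mitochondria, had median intensities of 0.154 and 0.148 and a log2 difference of 0.40 ± 0.28 (adjusted p = 0.28). Both differences turned negative without normalization (-0.23 and -0.15). Their median was 0.34, beside 0.10 for all probes.

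The rest of the division machinery gave no value of its own. None of 36 genes of mitosis and cytokinesis (mitotic cyclins and their kinases, Aurora kinases, KNOLLE and others), 17 genes of DNA replication and entry into S phase, or 26 tubulins and microtubule-associated proteins had a probe with 1 gene. Whether other transcripts of dividing cells differed between the groups could therefore not be measured, and the number of dividing cells in either group was not measured. For AT2G37420, 1 further probe is annotated with it together with other genes; it gives no value for a single gene and was not used here.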

How the data were processed

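Total RNA of the sut2 mutant and of wild type was measured by array, 12 columns each. The deposited table holds linear intensities; the scanning, background correction, dyes, averaging and scaling by the authors are not given in the sources. Column means lie near 1 and 4.25% to 7.94% of a column's values are 0. Columns were grouped by the titles in the labels. Probes were named from GEO's platform annotation, which may be outdated; of 692 probes with 1 gene, 690 matched a gene number in a table of TAIR10.1. No build is named for the probes, so no coordinates are given.

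A floor was set at the 1st percentile of positive values (0.00971), followed by log2 and quantile normalization between columns. Differences were fitted with limma 3.58.1 in R 4.3.3 (lmFit, eBayes, mutant minus wild type, group as the only term, 24 columns), with Benjamini-Hochberg adjustment over all 3439 probes at 0.05. Interaction terms were fitted on averages of consecutive numbers. Correlations were tested by 100000 permutations within groups. On simulated data for the 24-column fit to 3439 probes, 200 probes were changed and the columns were taken as independent. There 58.8% of the probes changed by a log2 of 1 were found, and 5.74% of all calls were false. In the data 1196 probes were called, far more than the 200 changed in the simulation, so these rates need not hold for the data.

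Same-numbered columns of the 2 groups deviated together over all probes (r 0.14 to 0.40 in 12 pairs). Columns of different numbers were not compared across the groups, so this does not show that the numbers pair the columns, and no label states a pairing. The main fit has no term for number, and a block by number is given as an alternative. Named genes were the 3 kinesins, the measured genes of the lists, and for each kinesin the 3 genes of highest r. The genes, lists and alternatives were chosen with earlier results of these data known. P-values measure only the spread between columns, in part perhaps technical, and the number of columns limits precision. Without a background measure, dim signal and background cannot be separated.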

Additional observations from a re-analysis of the deposited data

How the results depend on the processing

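AT2G37420 kept a negative log2 difference in all alternatives that gave a value, from -1.29 in numbers 7 to 12 alone to -0.21 in numbers 1 to 6 alone. It passed in 9 of 12 alternatives that kept all columns or whole divisions. In those 9, 1019 to 1559 probes passed, and as in the main fit nothing is read from the calls. AT2G37420 did not pass with consecutive numbers averaged, with or without a block, or in numbers 1 to 6. As a dim probe it gave no value with dim probes left out. Leaving out 1 column gave -0.90 to -0.64 for AT2G37420, 0.44 to 0.67 for AT3G20150 and -0.39 to -0.26 for AT3G44050, and 1088 to 1227 probes past the threshold, against 1196 in 24 columns. AT3G44050 moved to -0.86 and passed without normalization, and also passed in numbers 7 to 12 alone (-0.62). Of all 3439 probes 1189 and 1099 passed in these settings. AT3G44050 was -0.19 with array weights and -0.03 in numbers 1 to 6, where it did not pass, and the cause was not tested. On averages of consecutive numbers the change in numbers 7 to 12 passed neither for AT2G37420 nor for AT3G44050. The division was taken from earlier results of these data, so nothing is read from calls within it. AT3G20150 ran from -0.04 without normalization to 0.79 in numbers 1 to 6 and passed in none of 13 such alternatives. Averaging consecutive numbers left 449 probes past the threshold, or 759 when the averaged set also served as a replicate block. Numbers 1 to 6 alone gave 663 probes, while numbers 7 to 12 alone, with equally many columns, gave 1099. All of these fits hold fewer values than the main fit, and why their counts differ was not tested. A replicate block by number gave 1477 probes, the difference of AT2G37420 was still -0.75, and the block changed no call of the 3 genes. Without normalization 173 probes were higher and 1016 lower, with median centring 1053 and 506, against 648 and 548. The correlations of the 3 pairs passed under none of the alternatives. The division differences of the 3 genes did not pass with 24 columns singly either (adjusted p = 0.29, 0.62 and 0.27 for AT2G37420, AT3G20150 and AT3G44050) or with a replicate block on the averages (0.59, 0.72 and 0.52).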
